A study of Mus musculus with 12 samples.

Results

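The 9 genes described here are the 6 DNA topoisomerases of the mouse, Top1, Top1mt, Top2a, Top2b, Top3a and Top3b, and the 3 enzymes that remove topoisomerases trapped on DNA, Tdp1, Tdp2 and Sprtn. They were chosen by name as the target of etoposide, its relatives and the enzymes that clear the resulting protein adducts, and the rule itself uses no measured value. All 9 were found among the 29486 genes listed, and all 9 were among the 15574 that passed the filter on low values (4 or more libraries with scaled counts of 10 or higher). Their mRNA was measured by sequencing of polyadenylated RNA in splenic B cells of C57BL/6Babr mice, young adults per the study's methods, that had been activated with LPS, a bacterial activator of B cells. The 3 conditions had 4 libraries each. Cells labelled LPS had received LPS at 10 µg/ml for 48 h. LPS + etoposide cells had received the same LPS and then etoposide at 20 µM for 4 h. In LPS + KU55933 + etoposide cells KU55933, an inhibitor of the DNA damage kinase ATM, had been added at 10 µM after 47 h of the same LPS. The same etoposide treatment followed 1 h later. If LPS cells were taken at 48 h, treated cells were longer in culture, and time and etoposide cannot be told apart. The labels name no culture with KU55933 alone and no culture without LPS, so all 3 conditions share activation by LPS. The labels number the replicates of each condition but do not tie a number to a mouse or a culture. No library of a condition shares its sequencing index with another condition, so index and condition cannot be told apart.

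Topoisomerases relieve the twist that builds up when DNA is copied or read. They cut DNA through a tyrosine that stays bonded to the DNA end, let the strands pass or turn, and close the cut again. Type II enzymes (Top2a, Top2b) cut both strands, Top1 and the mitochondrial Top1mt cut a single strand and let it swivel, and Top3a and Top3b cut a single strand to undo crossed or entangled strands. Etoposide holds type II enzymes in the cut state, so that protein-linked breaks are left behind. Tdp2 releases the tyrosine of type II enzymes, Tdp1 that of Top1, and the protease Sprtn digests the protein part of such adducts. Top2a is made mostly by dividing cells from S phase to mitosis, whereas Top2b is also present in resting cells, and LPS-activated B cells divide rapidly.

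Each deposited value was a condition mean fitted by the authors' model, multiplied by a factor of the library, so the 4 libraries of a condition carried the same gene-to-gene pattern. The values therefore hold no spread between replicates, and no test of a difference between conditions could be made from them. The deposited columns summed to between 20739978 and 23935658 in LPS, 22523516 and 30575195 in LPS + etoposide, and 20400994 and 25052093 in LPS + KU55933 + etoposide. Below, a scaled count is the fitted value divided by the library's factor, and a difference is between 2 conditions in log2(scaled count + 1). Intervals in square brackets are exact binomial 95% intervals that cover counting error only, not the spread between cultures, and "past 1.5-fold" marks a size, not a test. The 3 comparisons share libraries pairwise and are not independent. As this is bulk RNA, fewer cells of a type and less RNA per cell cannot be told apart.

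Per kb of exons Top2a was the most abundant of the 9 mRNAs in each condition, at 2773 in LPS beside 587 for Top1, and at 691 with KU55933 and etoposide beside 392 for Tdp2. It was also the mRNA of the 9 with the lowest difference after etoposide. Etoposide-treated cells held 0.371 times the Top2a mRNA of LPS cells, and cells that also received KU55933 held 0.249 times. Tdp1 stood at 0.558 times its LPS level after etoposide, whereas Top1mt was 81.5% higher and Sprtn 54.6% higher. Tdp2, which acts on the adducts that etoposide produces, was close to its LPS level in every condition. In etoposide against LPS, 4 of the 9 genes were past 1.5-fold, 2 higher (Top1mt, Sprtn) and 2 lower (Top2a, Tdp1), beside 21.8% of all tested genes higher and 16.4% lower. The median difference of the 9 genes was -0.27, against -0.020 for all tested genes.

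**Figure D1:**
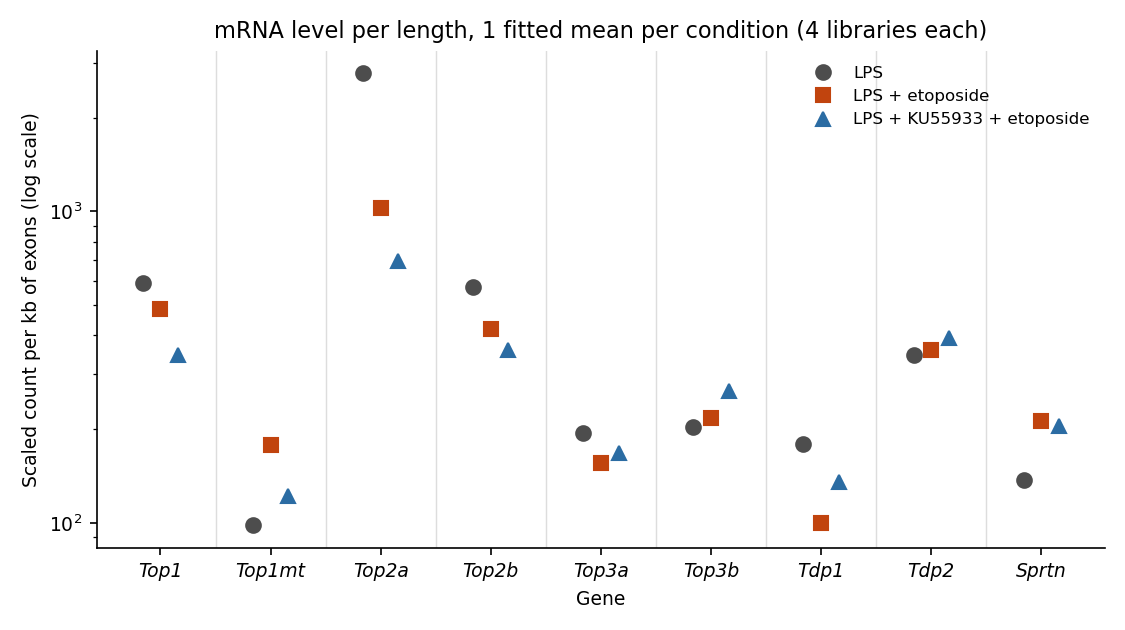
Scaled counts per kb of annotated exons (log axis) of the 9 genes, with 1 point per condition standing for the fitted mean of 4 libraries. Top2a lies highest in all 3 conditions, at 2773, 1028 and 691 per kb, while the 3 points of Tdp2 lie between 346 and 392 per kb.

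Top2a, the topoisomerase of dividing cells that etoposide traps, lies on chromosome 11 (GRCm38, chr11:98992943-99024189, minus strand). Its fitted counts in the 4 LPS libraries were 20523, 22769, 23685 and 21342. They were 9056, 10151, 12294 and 9840 in the 4 LPS + etoposide libraries, and 5708, 6437, 6896 and 7010 in the 4 LPS + KU55933 + etoposide libraries. The spread within a condition is that of the library factors alone, so whether libraries overlap adds nothing to the difference of the fitted means. After scaling, Top2a stood at 24993, 9267 and 6230 counts in the 3 conditions. Etoposide-treated cells differed from LPS by -1.43 [-1.45, -1.41], and 1.92% of tested genes had a lower difference. KU55933 with etoposide gave a further difference of -0.57 [-0.60, -0.55] against etoposide alone, just short of 1.5-fold, and of -2.00 [-2.02, -1.98] against LPS. Only 0.559% of tested genes had a lower difference in that last comparison. By TMM scaling the difference between KU55933 with etoposide and etoposide alone was -0.59, past 1.5-fold.

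Top2b, the type II enzyme that cells keep when they stop dividing, lies on chromosome 14 (chr14:16365179-16435462, plus strand). Its scaled count was 8382 in LPS, 6110 after etoposide and 5261 with KU55933 and etoposide. It was lower after etoposide by less than Top2a, with a difference of -0.46 [-0.48, -0.43]. KU55933 with etoposide differed from etoposide alone by -0.22 [-0.24, -0.19] and from LPS by -0.67 [-0.70, -0.65], the last past 1.5-fold. That last value lay between -0.72 and -0.29 over 6 ways of scaling, so that its place past 1.5-fold was lost under column totals and quantile normalization. Exons of Rarb on the opposite strand cover 12.3% of the exonic bases of Top2b, but Rarb itself had a scaled count of only 9.73 to 13.4.

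A ratio of 2 genes within a condition is the same under every scaling that multiplies a library by 1 factor, which leaves only quantile normalization of the 6 scalings to alter it. Per kb of exons, Top2a mRNA exceeded Top2b mRNA 4.83-fold in LPS, 2.46-fold after etoposide and 1.92-fold with KU55933 and etoposide. On the log2 scale the ratio changed by -0.98 with etoposide and by a further -0.36 with KU55933. Under quantile normalization, the differences of Top2a and Top2b in etoposide against LPS were -1.22 and -0.14. When the length of the longest coding transcript replaced that of all exons, the ratios were 5.90, 3.00 and 2.34, with the same changes between conditions. The order Top2a over Top2b thus held in every condition under either length.

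The DNA just before the annotated starts of these genes is shown because the paralogs Top2a and Top2b, encoding the same kind of enzyme, differed in how far their mRNA was lower. The 250 bases before each start, from RefSeq (GRCm38.p6), are printed 5′ to 3′ on the strand of the gene. Capitals mark CCAAT boxes (CCAAT on either strand) and matches to the cell cycle genes homology region, here TTTGAA or TTCGAA on either strand, letters known from promoters of G2 and mitosis genes. Top2a is at chr11:99024190-99024439 on the minus strand and Top2b at chr14:16364956-16365205 on the plus strand.
Top2a: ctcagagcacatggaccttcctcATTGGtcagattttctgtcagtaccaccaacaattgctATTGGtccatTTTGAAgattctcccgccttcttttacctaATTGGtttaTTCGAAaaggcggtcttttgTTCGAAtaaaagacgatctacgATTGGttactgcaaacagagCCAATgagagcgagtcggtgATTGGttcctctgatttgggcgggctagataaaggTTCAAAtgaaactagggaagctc
Top2b: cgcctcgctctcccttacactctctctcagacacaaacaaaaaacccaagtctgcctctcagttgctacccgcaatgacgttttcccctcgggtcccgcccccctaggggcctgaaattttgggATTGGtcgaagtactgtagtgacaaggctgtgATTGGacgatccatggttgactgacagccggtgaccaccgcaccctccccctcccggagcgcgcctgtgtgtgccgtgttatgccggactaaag
The Top2a window held 6 CCAAT boxes and 4 homology region matches, none of them overlapping. The Top2b window held 2 CCAAT boxes and no homology region match. Of 32851 RefSeq windows of the same length, 33.8% held at least 1 CCAAT box and 0.0578% held 6 or more. Homology region letters were in 17.1% of windows, and 4 or more matches in 6 windows. Windows were in the table for 6 of the 9 genes, and those of Top1mt, Top3a and Tdp2 were not in it. Among the others, Tdp1 held 1 homology region match and no CCAAT box, Top3b held 1 CCAAT box, and Top1 and Sprtn held neither. GC boxes (GGGCGG on either strand), present in 32.7% of windows, were found 3 times in Top1, 2 times in Sprtn and once each in Top2a, Top2b and Tdp1. A match is a run of letters and not a measured binding site, and a link between matches and the mRNA differences was not tested.

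**Figure D2:**
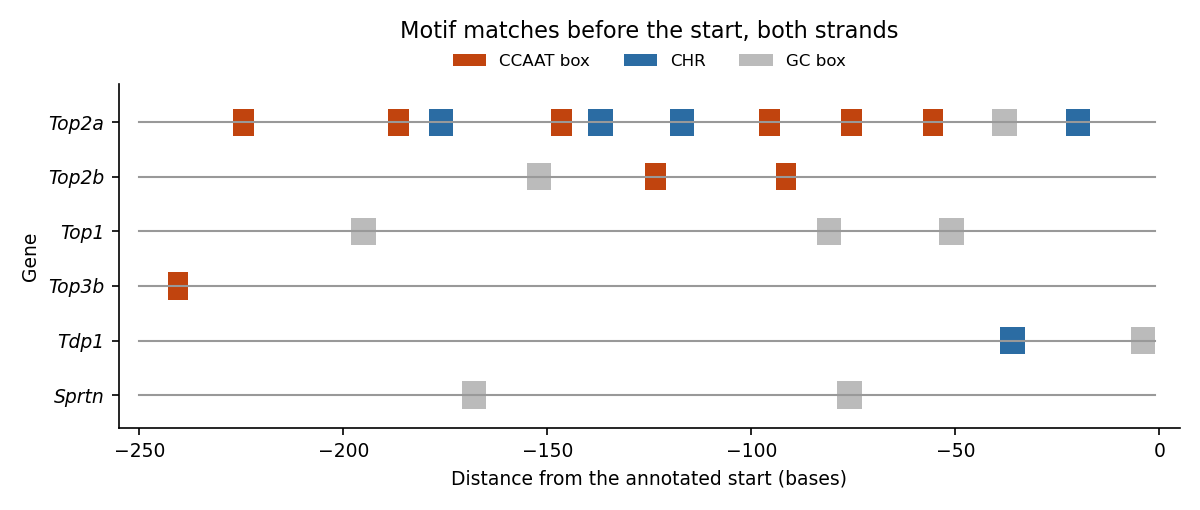
Positions of CCAAT boxes (orange), homology region matches (blue, CHR) and GC boxes (grey) in the 250 bases before the annotated start of 6 genes, as distance from the start in bases. Top2a carries 6 CCAAT boxes and 4 homology region matches, whereas the other 5 genes carry at most 2 and 1.

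Top1, the nuclear enzyme that unwinds DNA ahead of replication and transcription, lies on chromosome 2 (chr2:160645888-160722764, plus strand). Its scaled count was 6125 in LPS, 5066 after etoposide and 3613 with KU55933 and etoposide. Most of the difference from LPS was seen with KU55933: etoposide against LPS gave -0.27 [-0.30, -0.25], KU55933 with etoposide against etoposide -0.49 [-0.52, -0.46], and against LPS -0.76 [-0.79, -0.73]. The first of these ran from -0.36 to -0.031 over 6 scalings. The last, past 1.5-fold here, ran from -0.81 to -0.45 and was not past 1.5-fold under column totals or quantile normalization.

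Top1mt, the mitochondrial enzyme encoded in the nucleus (chr15:75657035-75678800, minus strand), had the lowest scaled count of the 9 genes in every condition. Its fitted counts were 165, 183, 190.4 and 172 in LPS, 356, 399.5, 484 and 387 after etoposide, and 228, 257, 275 and 280.0 with KU55933 and etoposide. These counts are before scaling, and the factors ran from 0.821 to 0.948 in LPS and from 0.977 to 1.33 after etoposide. Depth alone thus places etoposide libraries above LPS libraries, and the spread within a condition is again set by the factors. After scaling, Top1mt stood at 201, 365 and 249 counts. The difference was 0.86 [0.73, 0.99] for etoposide against LPS and -0.55 [-0.66, -0.44] for KU55933 with etoposide against etoposide. Against LPS the inhibited cells kept a difference of 0.31 [0.17, 0.45]. The antisense gene Gm15945 overlaps 4.65% of the exonic bases of Top1mt and had a scaled count of 3.01 to 5.07.

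Top3a and Top3b, the enzymes that untangle crossed strands, were on opposite sides of their LPS levels and within 1.5-fold in every comparison. Top3a (chr11:60740058-60777365, minus strand), which works with the Bloom helicase, had scaled counts of 892, 717 and 770. Its difference was -0.31 [-0.39, -0.24] for etoposide against LPS and 0.10 [0.030, 0.17] for KU55933 with etoposide against etoposide. Top3b (chr16:16870736-16892990, plus strand), which acts on RNA as well as DNA, had scaled counts of 1705, 1830 and 2222. Its difference was 0.10 [0.053, 0.15] after etoposide, 0.28 [0.24, 0.32] between KU55933 with etoposide and etoposide, and 0.38 [0.33, 0.43] between KU55933 with etoposide and LPS. The per kb ratio of Top3b to Top3a went from 1.05 in LPS to 1.40 after etoposide and 1.58 with KU55933 as well.

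Summed per kb of exons, the 6 topoisomerase mRNAs gave 4429 in LPS, 2485 after etoposide and 1951 with KU55933 and etoposide. Top2a made up 62.6% of that sum in LPS cells, 41.4% after etoposide and 35.4% with KU55933 and etoposide. Top2b made up 12.9%, 16.8% and 18.4%, and Top1 13.3%, 19.6% and 17.8%. The share of Top3b was 4.58% in LPS and 13.6% with KU55933 and etoposide. With the longest coding transcript as the length, the Top2a share was 59.2%, 38.1% and 32.3%, and that of Top1 was 19.6%, 28.2% and 25.3%. By that length Top2b made up 13.8% and Top3b 19.6% with KU55933 and etoposide, so that Top1 stood above Top2b there, which the length of all exons does not show.

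**Figure D3:**
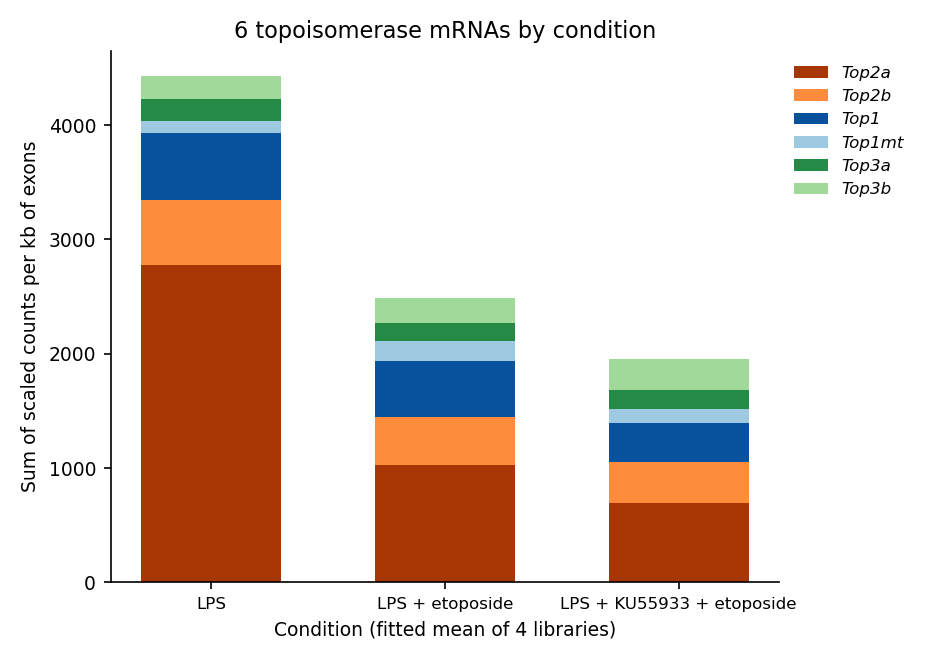
Sum of scaled counts per kb of exons for the 6 topoisomerases in the 3 conditions, each bar stacked by gene and standing for the fitted mean of 4 libraries. The bars reach 4429, 2485 and 1951, and the Top2a segment goes from 62.6% to 41.4% and 35.4% of the bar.

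Among the repair enzymes, Tdp1 and Sprtn were on opposite sides of their LPS levels after etoposide. Tdp1 (chr12:99884517-99955219, plus strand), which frees DNA ends from trapped Top1, had fitted counts of 1180, 1309, 1362 and 1227 in LPS, 783, 878, 1063 and 851 after etoposide, and 992, 1118, 1198 and 1218 with KU55933 and etoposide. These counts are before scaling, and their spread within a condition comes from the library factors alone. Scaled counts were 1437, 801 and 1082. The difference was -0.84 [-0.91, -0.78] for etoposide against LPS, and 8.90% of tested genes had a lower difference. With KU55933 the level was 35.0% higher than with etoposide alone, a difference of 0.43 [0.37, 0.50], and still -0.41 [-0.47, -0.35] from LPS. Among the 9 genes, Tdp1 and Top3a were the genes below LPS after etoposide whose level with KU55933 was nearer to LPS.

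Tdp2 (chr13:24831679-24842153, plus strand), which frees DNA ends from trapped Top2a and Top2b, had scaled counts of 1138, 1182 and 1289. The difference after etoposide was 0.055 [-0.0043, 0.11], with an interval that includes 0, and it lay between -0.031 and 0.19 over 6 scalings. KU55933 with etoposide differed from etoposide by 0.13 [0.070, 0.18] and from LPS by 0.18 [0.12, 0.24]. Its fitted counts spanned 934 to 1078 in LPS, 1155 to 1568 after etoposide and 1181 to 1450 with KU55933 and etoposide before scaling, the depth of the libraries included.

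Sprtn (chr8:124897886-124906161, plus strand), the protease for DNA-protein crosslinks, had fitted counts of 531, 589, 613 and 552 in LPS. They were 977, 1095, 1326 and 1061 after etoposide and 886, 999, 1070 and 1087 with KU55933 and etoposide. These counts include the depth of the libraries, which was lower by factor in LPS than after etoposide. Their spread within conditions is from the library factors alone. Scaled counts were 646, 999 and 966. The difference was 0.63 [0.56, 0.70] for etoposide against LPS and 0.58 [0.51, 0.65] for KU55933 with etoposide against LPS, just short of 1.5-fold. Over 6 scalings these ran from 0.54 to 0.76 and from 0.53 to 0.76, so that both crossed 1.5-fold with the scaling. KU55933 with etoposide differed from etoposide by -0.049 [-0.11, 0.013], a value that ran from -0.066 to 0.0012 over 6 scalings. The antisense gene Gm45709 overlaps 10.4% of the exonic bases of Sprtn, and whether the reads were counted by strand is not given in the sources used here.

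**Figure D4:**
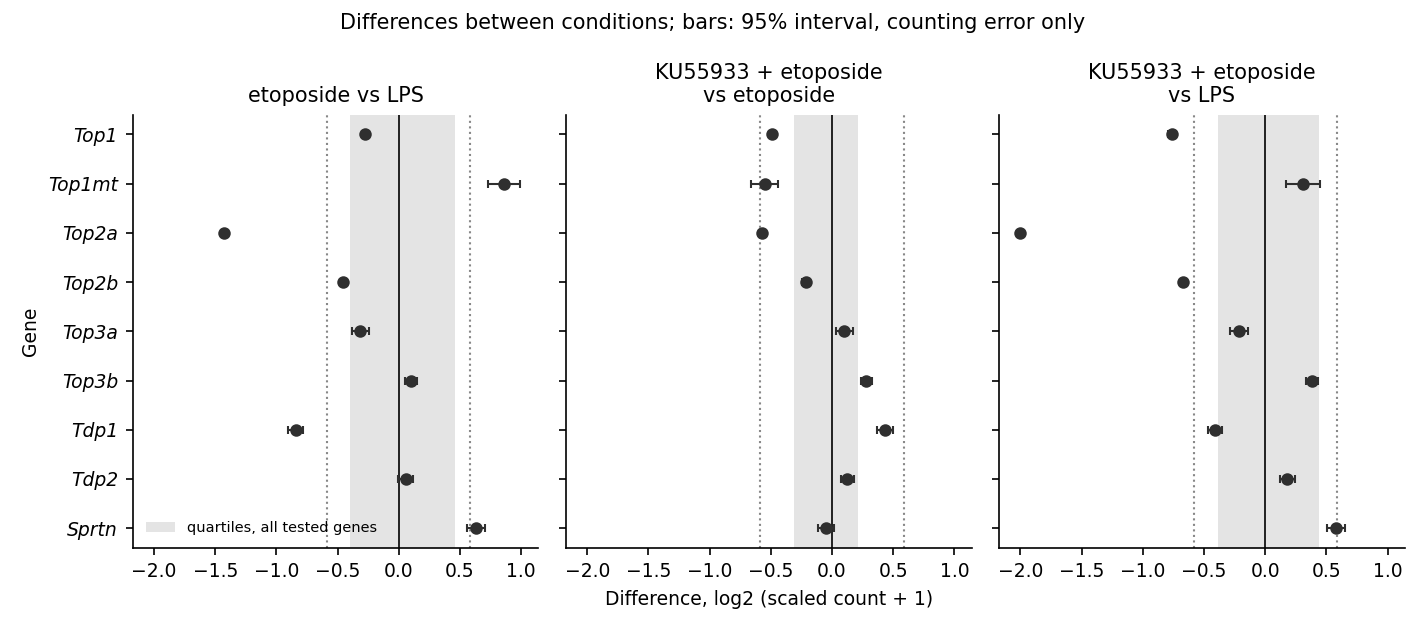
Differences of the 9 genes in log2(scaled count + 1) for the 3 comparisons, with bars for the 95% interval of counting error, grey for the quartiles of all tested genes and dotted lines at 1.5-fold. Top2a lies at -1.43, -0.57 and -2.00, Top1mt and Sprtn lie to the right of the upper dotted line for etoposide against LPS, and none of the 9 genes crosses a dotted line for KU55933 with etoposide against etoposide.

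With ATM inhibited, 0 of the 9 genes differed from etoposide alone by 1.5-fold, beside 7.02% of all tested genes higher and 11.8% lower. Of the 9 genes, 4 lay above 0 and 5 below, with a median of -0.049 against -0.044 for all tested genes. Against LPS, the cells with KU55933 and etoposide had 3 of the 9 genes past 1.5-fold, all lower (Top2a, Top1, Top2b), beside 20.2% of tested genes higher and 16.1% lower. That split depended on the scaling: TMM factors gave 1 higher and 3 lower, as did median-of-ratios factors from genes with 10 or more in every library, and column totals and quantile normalization each gave 1 higher and 1 lower.

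Per kb of exons there were 0.125 Tdp2 transcripts for each Top2a transcript in LPS, 0.350 after etoposide and 0.568 with KU55933 and etoposide. For Top2b the ratio of Tdp2 was 0.604, 0.860 and 1.09, or 0.717, 1.02 and 1.29 per kb of the longest coding transcript. The ratio of Tdp1 to Top1 was 0.306 in LPS, 0.206 after etoposide and 0.391 with KU55933 and etoposide. Under quantile normalization, the differences of Tdp1 and Top1 in etoposide against LPS were -0.78 and -0.031. The ratio of Tdp2 to Tdp1 was 1.92 in LPS, 3.58 after etoposide and 2.90 with KU55933 as well. This ratio rests on the length used: per kb of the longest coding transcript Tdp2 stood at 581, 604 and 659 and Tdp1 at 706, 394 and 532, so that Tdp1 was the higher of the pair in LPS. Summed, Tdp1, Tdp2 and Sprtn gave 663, 672 and 733 per kb, which was 15.0%, 27.1% and 37.6% of the topoisomerase sum. Levels per kb of exons depend on which transcripts are counted as the gene. With the longest coding transcript as the length, Top1 exceeded Top2b 1.96-fold in LPS, against 1.02-fold with all exons, and Top2a exceeded Top1 3.01-fold, against 4.72-fold. Top2a ranked first of the 9 genes in all conditions under both lengths. With KU55933 and etoposide, Tdp2 ranked 2 per kb of exons but 4 per kb of the longest coding transcript.

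Genes that act with these enzymes were described by lists of known function. Of 8 genes of single-strand break repair, which complete the repair that Tdp1 begins, 2 were lower past 1.5-fold after etoposide and 0 were higher, beside 16.4% of all tested genes lower and 21.8% higher. They were Parp1, the sensor of strand breaks, at -1.12 and Lig3, the ligase that seals them, at -0.59, and the median of the list was -0.24. Of 6 genes of the nuclease route, which cuts the DNA end off together with the trapped enzyme, 1 was lower past 1.5-fold, Nbn at -0.87, near the 16.4% of all tested genes, while the nuclease Mre11a was at -0.41. The median of the list was -0.18.

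Of 10 genes of the SUMO, ubiquitin and protein-unfolding machinery that handles trapped topoisomerases, 1 was higher and 1 lower past 1.5-fold after etoposide. Of all tested genes, 21.8% were higher and 16.4% lower, and 10 genes are too few to be told from those shares. Zfp451, a SUMO ligase that helps Tdp2 reach trapped Top2, had a scaled count of 1650 in LPS, 3652 after etoposide and 2691 with KU55933 and etoposide. Its difference was 1.15 after etoposide and -0.44 between KU55933 with etoposide and etoposide, while Tdp2 itself was at 0.055 and 0.13. Usp7, which removes ubiquitin, was at -0.81 after etoposide. Among 5 partners of Top3a and Top3b, Rmi2, a subunit of the Bloom helicase complex, was at -1.27 and Fmr1, an RNA-binding partner of Top3b, at -0.62, 2 of 5 lower past 1.5-fold, and the median was -0.46. Of the other proteases for protein adducts, Fam111a was at -0.95 and Ddi2 at 0.53. Ddi1 and Gcna were not analysed here.

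Genes of G2 and mitosis were lower in the same samples as Top2a. Of 10 such genes, 8 were lower past 1.5-fold after etoposide, beside 16.4% of all tested genes, with a median of -1.56 beside the -1.43 of Top2a. The mitotic kinase gene Plk1 was at -2.86 and the cyclin gene Ccnb1 at -1.89, whereas Mki67, a general marker of cycling cells, was at -0.62. With KU55933 and etoposide against etoposide, 5 of the 10 were lower past 1.5-fold, beside 11.8% of all tested genes, with a median of -0.57, which is also the value of Top2a, and Mki67 was at -1.08. The per kb ratio of Top2a to Kif11, the gene of a spindle motor, was 2.61, 2.81 and 2.90 in the 3 conditions. That to Ccnb1 was 3.02, 4.15 and 3.58, and that to Mki67 was 0.849, 0.484 and 0.689. The part of cell cycle composition in the Top2a values was not tested.

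**Figure D5:**
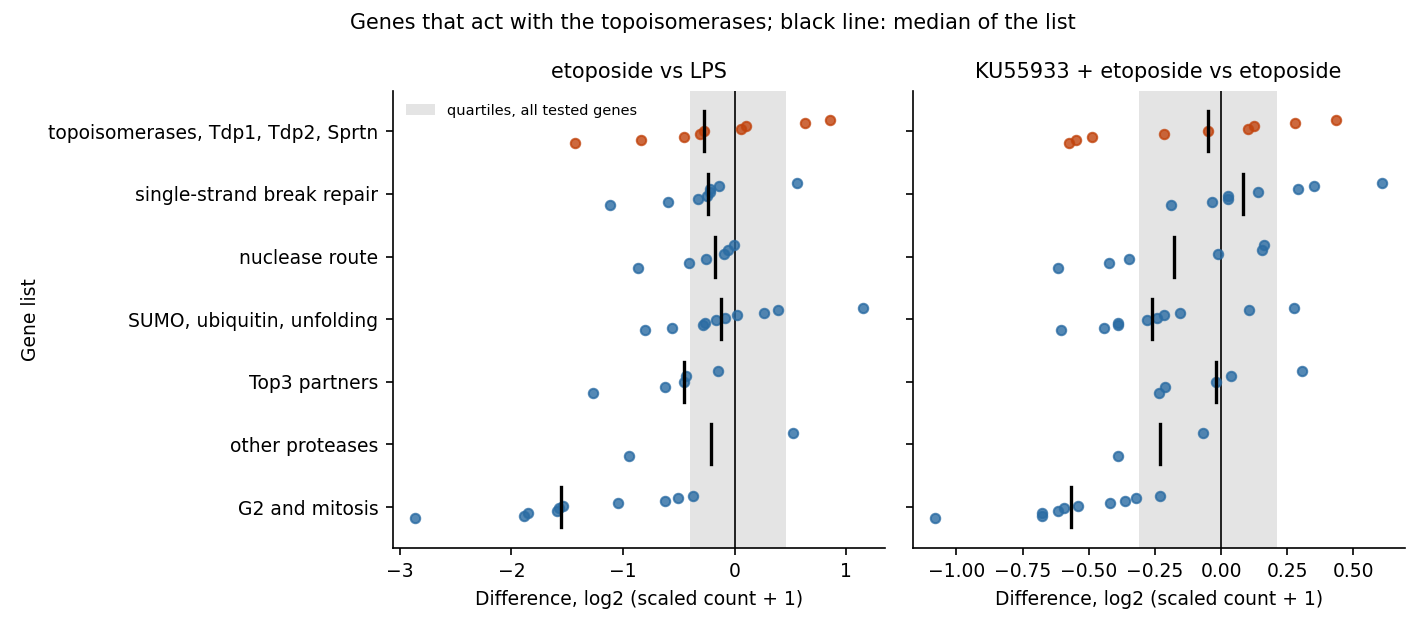
Differences in log2(scaled count + 1) of the 9 genes (orange) and of the genes of 6 further lists (blue), for etoposide against LPS and for KU55933 with etoposide against etoposide, on axes of different range. Black lines are list medians and grey marks the quartiles of all tested genes, and the G2 and mitosis list lies farthest left, with medians of -1.56 and -0.57.

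Reporter genes of p53, the transcription factor switched on by DNA damage, were measured as a sign of the damage response. All 6 were higher past 1.5-fold after etoposide, beside 21.8% of all tested genes, with a median difference of 2.80. Cdkn1a, an inhibitor of the cell cycle, was at 5.02 and Ccng1 at 3.16. With KU55933 the 6 genes lay below etoposide alone, with a median difference of -0.60 against -0.044 for all tested genes. Of the 6 genes, 3 were lower past 1.5-fold, beside 11.8% of all tested genes.

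Markers of B cells were abundant, with summed scaled counts of 187219 in LPS, 135506 after etoposide and 141147 with KU55933 and etoposide. After etoposide 4 of the 6 were lower past 1.5-fold, beside 16.4% of all tested genes. Pax5, a B cell identity factor, was at -2.31. The T cell list summed to 430.5, 301 and 276, nearly all of it Lck, while the defining genes Cd3d, Cd3e, Cd3g, Cd4 and Cd8a were each under 4 scaled counts. Macrophage markers, 6 of 6 past the filter, summed to 416, 465 and 427. Of these 6 genes, 3 were higher past 1.5-fold after etoposide and 1 was lower, beside 21.8% and 16.4% of all tested genes. Those higher were Cd14, with scaled counts of 5.15, 24.1 and 40.2, Cd68 at 104, 210.1 and 174, and Csf1r at 4.16, 10.3 and 9.62. Cd14 and Csf1r were under 10 in LPS and passed the filter only through conditions where they were higher. Itgam was the lower gene, at 219, 128 and 114. The median difference of 0.74 includes the 2 genes near the filter. Red cell markers summed to 70.4, 90.6 and 45.5, and NK cell markers, 2 of 3 found, to 0.792, 0.976 and 1.41. Plasma cell markers summed to 13976, 14034 and 9898, within which Sdc1, a surface marker of plasma cells, stood at 138, 1943 and 630. The list went in both directions after etoposide, with Prdm1 at -0.46, Xbp1 at -0.52, Jchain at 0.38 and a median of -0.039. The part of these shifts in the values of the 9 genes was not tested.

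The genes with a pattern most like that of a given member were sought among 11341 other genes by the distance between their pairs of differences, over 3 conditions. For Top2a they were Cacna1i, Timd2 and Mxd3, at distances of 0.060, 0.067 and 0.081 log2 units. For Top2b they were Tmod3, Dnajc17 and Mkln1, at 0.0018, 0.0074 and 0.013. For Tdp1 they were Ctps2, Iars and 1190007I07Rik, at 0.0087, 0.023 and 0.025. Those of Tdp2 were Rps26-ps1, a pseudogene whose reads cannot be told from those of its parent gene with certainty, Btbd7 and Zbtb14, at 0.0035, 0.0048 and 0.0070. Top2a had the most distant nearest genes of the 4 members, but few genes lie in its range. Only 1.92% of tested genes had a lower difference after etoposide. Cacna1i, Timd2 and Mxd3 had scaled counts of 393, 222 and 263 in LPS, beside 24993 for Top2a.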

How the data were processed

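Per the labels and the study's methods, stranded TruSeq mRNA libraries were trimmed with Trim Galore (cutadapt 1.2.1), aligned to GRCm38/mm10 with TopHat2 2.0.12, counted per Ensembl gene with HTSeq and fitted with DESeq2 1.6.3. The strand setting of the counting is not given in the sources used here. The deposited table holds a signal per gene and library which the authors called normalized counts. Within a condition its columns differed only by a constant factor (largest deviation 2.7e-14 log2 units), and no value is 0, so that each is a fitted condition mean times a library factor and not a read count. The authors' 3 comparison tables hold fold changes, errors and p-values, which were not used. Their mean count over all libraries, also deposited as a signal, served to recover the library factors from 10866 genes with a mean of at least 100. The scaled average then differed from the deposited mean by between -0.983% and 0.0933% for the central 95% of genes.

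Values were divided by these factors, filtered and compared as log2(scaled count + 1) with Python 3.11.15, numpy 2.4.6, scipy 1.17.1 and pandas 2.3.3. The planned limma test needs values per replicate and was not run. Exact binomial intervals were computed from fitted reads summed over the 4 libraries of each condition. PCR duplicates make reads not independent, and intervals cover counting error only. Data for etoposide against LPS were also simulated, with 14628 genes and an assumed spread between replicates. Genes with a scaled count of at least 100 were changed by 1 log2 unit, and 100% of these were called in the right direction. Other genes that were called made up 0.807% of those tested. That share depends on the assumed spread and is not an error rate of these data, whose spread is unknown. Exonic lengths and positions came from the GENCODE annotation of GRCm38, and promoter windows from RefSeq. The 6 scalings of the text are the recovered factors and all of the following but the columns as deposited. Alternatives were other scalings (TMM factors, column totals, quantile normalization and, chosen after seeing the data, median-of-ratios factors recomputed on 2 sets of genes and the columns as deposited), pseudocounts, filters and folds, and leaving out each library. All 9 genes were named. Of each further list, the 2 genes with the largest difference after etoposide among those with a scaled count of at least 100 were named, plus Cdkn1a, Mki67 and Ccnb1, and in ratios Kif11. Kif11 and the single markers named beside a list's sum were chosen after their values were seen. Members and lists were chosen with earlier results of these data known.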

Additional observations from a re-analysis of the deposited data

How the results depend on the processing

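No paired analysis was possible because the columns hold 1 fitted mean per condition and carry no deviation of a replicate. For the same reason, leaving out each of the 12 libraries in turn left every value as it was, which says nothing about stability between cultures. At a fold of 2 in place of 1.5, 1 of the 9 genes was past it in etoposide against LPS and 1 in KU55933 with etoposide against LPS (Top2a in both), and of all tested genes 3150, 996 and 2645 were past it in etoposide against LPS, KU55933 with etoposide against etoposide and KU55933 with etoposide against LPS. At a fold of 1.2 these were 7, 5 and 7 of the 9 genes and 10317, 7705 and 10278 of all tested genes. In KU55933 with etoposide against etoposide, TMM scaling placed 1 of the 9 genes past 1.5-fold (Top2a), and the columns as deposited, an alternative chosen after seeing the data, placed 2 (Top2a, Top1mt). Over 6 scalings the sign changed only for Tdp2 in etoposide against LPS and Sprtn in KU55933 with etoposide against etoposide. In the columns as deposited, which keep differences in depth, Top1 and Top3a were at 0.063 and 0.022 in etoposide against LPS, and Top3a at 0.030 in KU55933 with etoposide against LPS. Column totals moved the median of all genes by 0.13 in etoposide against LPS and by 0.18 in KU55933 with etoposide against LPS. Of the genes past 1.5-fold, 57.1% were higher in etoposide against LPS, against 68.0% with column totals, 44.5% with quantile normalization and 82.1% in the columns as deposited. In KU55933 with etoposide against etoposide 37.4% were higher, against 49.1% with quantile normalization and 25.3% in the columns as deposited, and in KU55933 with etoposide against LPS 55.7%, against 72.2% with column totals and 77.0% in the columns as deposited. The cause of these shifts was not tested. With 165 fitted reads or more per library for every one of the 9 genes, counting error was small, and the spread between cultures is the limit that these values leave unmeasured.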
